A study of Mus musculus with 28 samples.

Results

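The 9 genes described here, *Ccr7*, *Tcf7*, *Lef1*, *Klf2*, *S1pr1*, *Bach2*, *Il7r*, *Pik3ip1* and *Gpr83*, were grouped under the program of resting, recirculating regulatory T (Treg) cells, and all 9 were among the 53801 features listed. Of these, *Gpr83* and *Pik3ip1* were chosen by their high level in splenic against tumor Treg cells of IgG-treated mice in the same data, so their values in those libraries are given as a description, with no test. The other 7 were named for their role, with earlier results of these data known. Bulk RNA sequencing with Smart-Seq2, a method that copies and amplifies whole transcripts of small samples, was done on Treg cells of C57BL/6 mice bearing forebrain tumors of CT2A, a murine glioblastoma (GBM) cell line. All mice carried tumors, so the spleens are those of tumor-bearing animals, and ages are not given in the sources used here. Mice received 4 injections, 3 days apart, of 250 µg of the control antibody IgG2a (IgG) or of αPD1 + αGITR, which block the inhibitory receptor PD1 and activate the co-stimulatory receptor GITR, and organs were taken 2 days after the last one. The values come from 27 libraries, of which 7 were splenic Treg cells after IgG, 8 splenic Treg cells after αPD1 + αGITR, 5 GBM Treg cells after IgG and 7 GBM Treg cells after αPD1 + αGITR. The design text speaks of spleen samples and tumor samples from different mice, but does not say what the numbers in the library names stand for. Its wording can mean different mice within each tissue or between the tissues, so whether a spleen and a tumor can come from 1 mouse is not settled. The study gives fewer animals than there are splenic libraries, so some of these share an animal if its counts hold for the spleens. Some library numbers also recur with several letters in both tissues, in GBM those of tumor_70_a and tumor_70_b and of tumor_73_a and tumor_73_b. Libraries of either tissue may therefore share an animal, and counts of spleens below are counts of libraries. The cells were sorted as CD4+ and CD25-high but CD127-low, with CD8+ cells gated out. *Il7r* encodes CD127, so the sort itself selected on its product.

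Resting Treg cells share much of their gene expression with naive T cells and travel between blood and lymphoid organs, whereas effector Treg cells lose this program as they settle in inflamed tissue. Entry into lymphoid tissue is guided by the chemokine receptor CCR7, and exit follows the sphingosine-1-phosphate receptor S1PR1, whose gene is a target of the transcription factor KLF2. TCF1, encoded by *Tcf7*, and LEF1 are closely related factors that bind the same DNA sites and act in naive and memory T cells, and BACH2 is a repressor that restrains effector differentiation. The interleukin-7 receptor α chain supports the survival of resting T cells, the transmembrane protein encoded by *Pik3ip1* inhibits phosphoinositide 3-kinase (PI3K), and GPR83 is a G protein-coupled receptor known as a marker of Treg cells.

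Levels are given as TPM, the transcripts of a gene counted per transcript length and scaled to the same total in every library. The number of reads behind them is unknown, so precision rests on the spread between libraries alone. One feature took from 15.5% to 53.7% of a library, and between 7702 and 17460 genes per library were above 1 TPM. The Treg cell label was borne out by *Foxp3*, the defining factor of the lineage, which was listed at 21.5 to 440.4 TPM in the 27 libraries, and all 9 markers of Treg and T cell identity had a mean above 1 TPM in each group. The summed level of these 9 markers had medians of 767 TPM (range 242 to 2446) after IgG and 730 TPM (range 229 to 2249) after αPD1 + αGITR in spleen, and in GBM of 1721 TPM (range 1552 to 3061) and 2627 TPM (range 1958 to 3699). Of 11 B cell markers, 9 and 8 had a mean above 1 TPM in the splenic groups and 2 and 3 in the GBM groups. Their summed level overlapped between treated spleens (63.3 to 474 TPM) and treated GBM (132 to 342 TPM) and was mostly *Ighm* (48.2 to 441 TPM and 129 to 340 TPM). The mean of *Cd22* was 4.13 TPM in treated spleens and 0.46 TPM in treated GBM, and the medians of *Cd79a* and *Ms4a1* were below 1 TPM in each group. The sum of 2 erythroid markers had medians of 13.8 and 51.2 TPM in the spleens after IgG and treatment, and of 0 and 0.87 TPM in GBM. For 12 macrophage and microglia markers, the highest sums were 4798 TPM in IgG library tumor_79_a and 1894 TPM in treated library tumor_73_a, and all others were at most 283 TPM. These 2 libraries, and IgG library tumor_369_a, which had the fewest genes above 1 TPM, stand apart, and values that rest on GBM libraries were recomputed without them, which is given where it moved a value. Libraries spleen_72_b, spleen_79_a and spleen_79_d had the lowest Treg marker sums (229, 243 and 242 TPM). Each of them was left out only singly, not together. The part of other cells in the results below was not tested. In bulk RNA, fewer cells that express a gene and less RNA of it per cell cannot be told apart.

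The promoter of *Gpr83*, the member with the largest tissue difference, is shown by the bases before its start. Windows from 250 bases before to 50 bases after the start were listed for 7 of the 9 genes (11 windows) in the RefSeq table of build GRCm38.p6. The motifs searched on both strands were CACCC, bound by KLF factors, TGTTTAC, bound by FOXO factors, CTTTGA and CTTTGT, bound by TCF1 and LEF1, TGANTCA, bound by BACH and AP-1 factors, and CCGGAA, bound by ETS factors. The 250 bases before the start of *Gpr83* in that table (chr9:14859960-14860209, plus strand), which is also its first base in GENCODE, are printed in lower case, 5′ to 3′, with capitals for any of these motifs on either strand.
Gpr83: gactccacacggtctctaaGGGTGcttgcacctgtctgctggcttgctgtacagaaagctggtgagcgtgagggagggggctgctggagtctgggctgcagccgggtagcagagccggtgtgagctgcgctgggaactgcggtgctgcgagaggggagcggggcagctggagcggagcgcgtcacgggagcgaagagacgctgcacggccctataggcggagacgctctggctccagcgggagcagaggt

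The only motif in this stretch was the KLF box, once, as its reverse complement GGGTG. For *Pik3ip1* and *Il7r* the 2 annotations place the start differently, and 250 and 86 of the 250 bases lie in GENCODE exons of these genes, so they are not printed. Over the full windows the KLF box occurred in 5 of the 7 genes, which were *Lef1*, *Klf2*, *Tcf7*, *Gpr83* and *Pik3ip1*. It is a common string, held by 57.5% of the 32851 windows in the table. The TCF1 and LEF1 motif CTTTGA was present in windows of *Lef1* and *Bach2* (16% of all windows) and CTTTGT in 1 window of *Lef1* (18.7%). The FOXO motif was present in 1 window of *Tcf7* (3.65%), the ETS motif in windows of *Tcf7* and *Bach2* (14.9%), and the BACH and AP-1 motif in none (7.81% of all windows). These matches describe letters in short windows and say nothing on binding.

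The tissue difference was tested in the mice treated with αPD1 + αGITR, whose libraries did not enter the choice of *Gpr83* and *Pik3ip1*. *Gpr83*, *Tcf7* and *Ccr7* were lower in GBM (n = 7) than in splenic Treg cells (n = 8), by 3.36, 2.70 and 2.15 on the log2 scale. *Pik3ip1*, *Lef1* and *S1pr1* lay lower by less and did not pass the adjusted threshold, *Bach2* was low in GBM but below the filter of the test, and *Il7r* and *Klf2* did not follow the others. The p-values measure the spread between the libraries of a group, and are too small if libraries share an animal. The limma test was run on log2(TPM + 1) and covered the 7506 genes whose mean exceeded 10 TPM in either group, with Benjamini-Hochberg adjustment over all of them. Each of the 9 genes was also put through an exact permutation test (two-sided, 6435 splits, smallest possible p 0.000155), with no adjustment of its p-values. The filter left 7 of the 9 genes, and 3 of these 7 were called lower, where 121 of all genes tested (1.61%) were lower and 1189 (15.8%) higher. *Tcf7* and *Gpr83* passed the filter through the spleen alone. A filter on the mean over both groups, which does not favor the higher group, kept them and the 3 calls. The 7506 genes had a median log2 fold change of 0.95, so the typical gene lay higher in treated GBM and the 3 genes moved against that shift. Quantile normalization and trimmed-mean (TMM-type) factors over the genes tested took that median to 0.15 and -0.02, and then called 651 genes lower and 443 higher, and 319 lower and 238 higher. The 3 calls held under both.

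**Figure D1:**
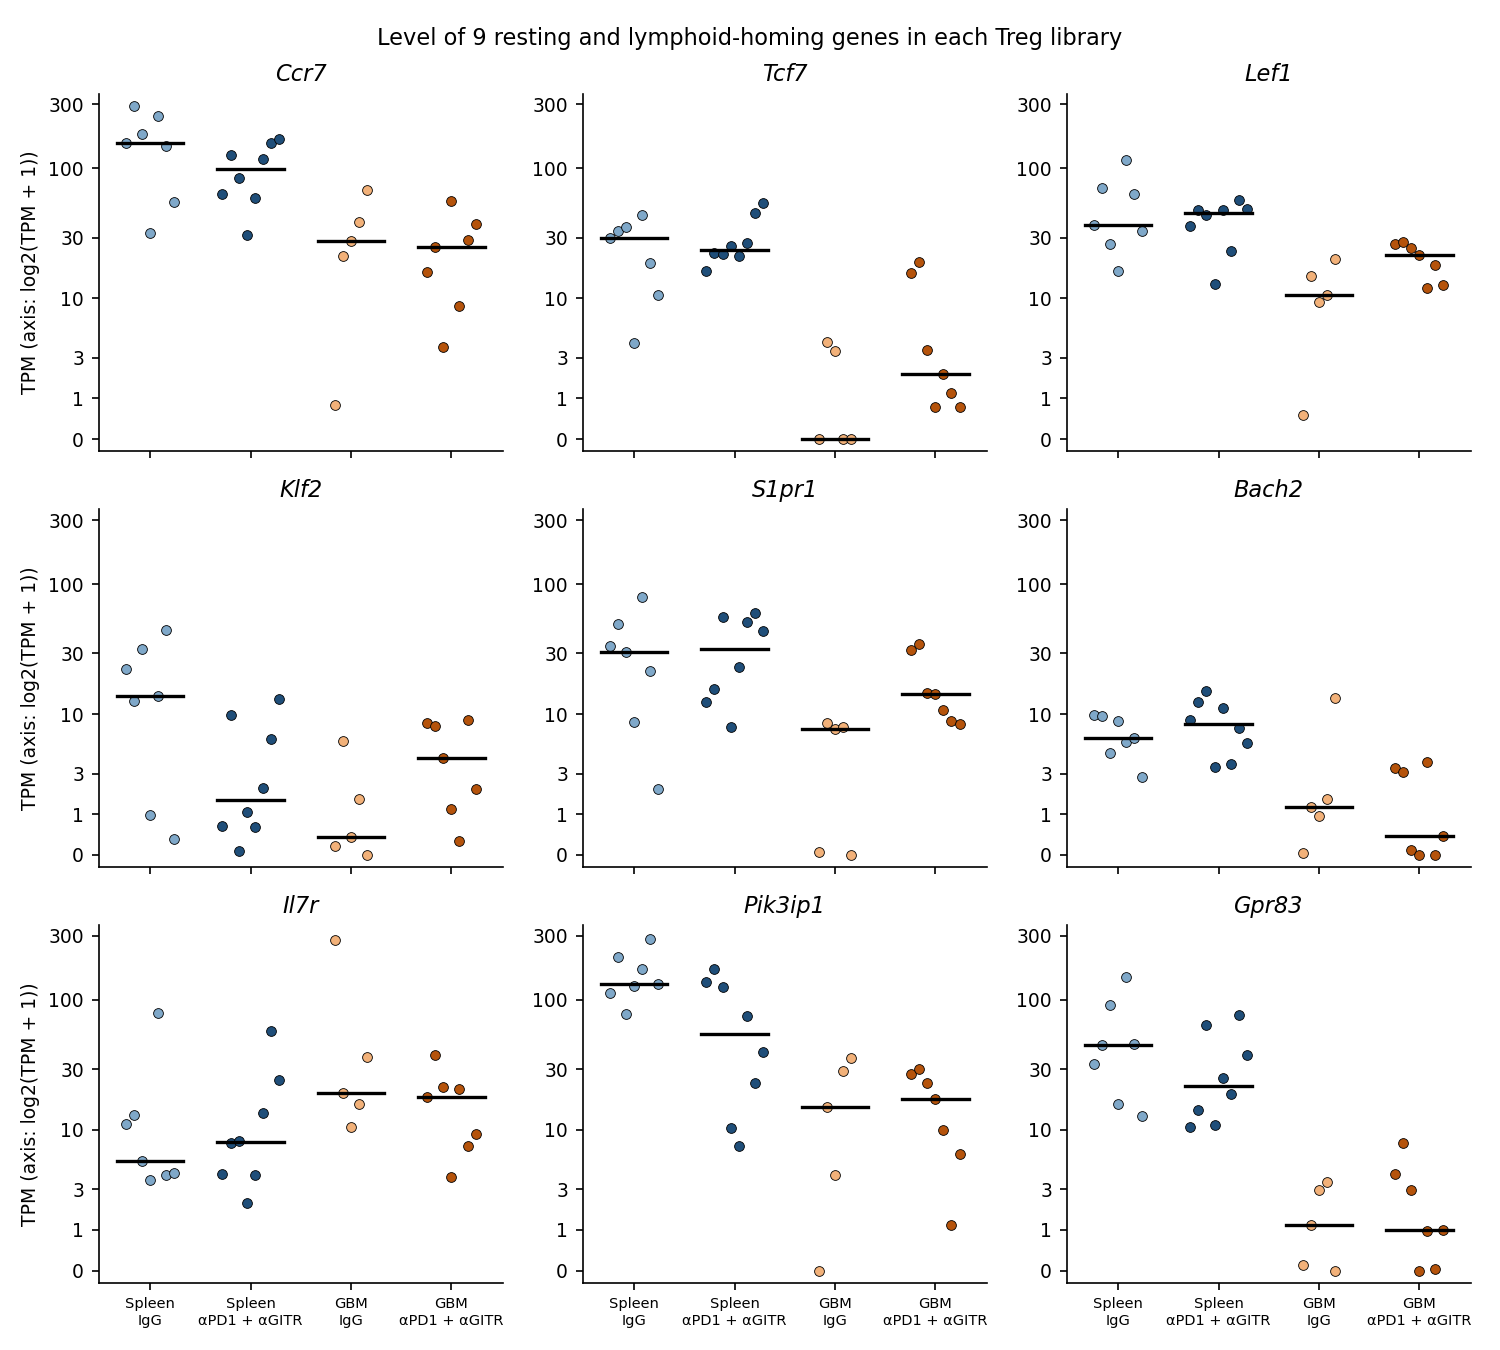
Level of each of the 9 genes in the 27 libraries, with TPM on a log2(TPM + 1) axis and the 4 groups side by side; points are libraries and bars are group medians. For *Gpr83* the 7 treated GBM libraries, up to 7.82 TPM, all sit below the 8 treated spleens, which start at 10.5 TPM.

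Among the transcription factors, *Tcf7* (chromosome 11 from 52252371 to 52283014, GRCm38) was listed at 16.5, 24.3 and 54.8 TPM (lowest, median and highest) in treated spleens and at 0.72, 2.03 and 19.4 TPM in treated GBM. Library tumor_70_b, at 19.4 TPM, reached into the range of the spleen, and the other 6 of 7 GBM libraries, tumor_70_a at 16 TPM included, lay below every splenic one. The log2 fold change was -2.70 (standard error 0.61, limma adjusted p = 0.00685, exact permutation p = 0.000311). *Lef1* (chromosome 3 from 131110471 to 131224356) was listed at 13.1, 46.5 and 58.3 TPM in spleen and 12.2, 22.0 and 27.7 TPM in GBM. Its groups overlapped, with 6 of 8 spleens above every GBM library, and the fold change of -0.87 (standard error 0.47) gave an adjusted limma p of 0.164 and an exact permutation p of 0.0200. Quantile normalization and TMM-type factors over the genes tested called it lower, at -1.62 and -1.68. Whether *Tcf7* and *Lef1* differed in the size of their change was not tested.

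*Bach2* (chromosome 4 from 32238804 to 32586108) had low levels everywhere, at 3.50, 8.37 and 15.4 TPM in treated spleens and 0, 0.37 and 3.87 TPM in treated GBM. With both means at or below 10 TPM it was outside the limma test. By the exact permutation test its difference was -2.13 (p = 0.000622), and 6 of 7 GBM libraries were below every spleen. *Klf2* (chromosome 8 from 72319033 to 72321656) was listed at 0.070, 1.62 and 13.3 TPM in spleen and 0.27, 4.24 and 8.95 TPM in GBM. These ranges overlap almost wholly, and the difference of 0.38 gave an exact permutation p of 0.573, and was -0.18 with TMM-type factors over the genes tested.

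Of the receptors, *Gpr83* (chromosome 9 from 14860210 to 14870789) separated the tissues without overlap. It was listed at 10.5, 22.4 and 77.3 TPM in treated spleens and 0, 0.99 and 7.82 TPM in treated GBM, where only 3 of 7 libraries were above 1 TPM. Its log2 fold change was -3.36 (standard error 0.63, limma adjusted p = 0.00183, exact permutation p = 0.000155, the smallest these groups allow). All 7 GBM libraries were below all 8 spleens, which held for 3 of the 7506 genes tested (0.0400%) in this direction. These are GBM libraries of other mice than those by which the gene was chosen, but of the same experiment.

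*Ccr7* (chromosome 11 from 99144196 to 99155077) was one of the most abundant of the 9 genes in spleen, at 31.3, 101 and 165 TPM after treatment, and stood at 3.79, 25.3 and 57.1 TPM in treated GBM. It was detected in every treated GBM library, and 5 of them were below every spleen. Its tissue difference was -2.15 (log2, standard error 0.56, limma adjusted p = 0.0152, exact permutation p = 0.00124). *S1pr1* (chromosome 3 from 115710433 to 115715072) was listed at 7.78, 34.0 and 61.0 TPM in spleen and 8.33, 14.5 and 35.2 TPM in GBM. No GBM library was below the lowest spleen, 4 of 8 spleens were above every GBM library, and the fold change was -0.80 (standard error 0.56, limma adjusted p = 0.266, exact permutation p = 0.130). As with *Lef1*, it was called lower only under quantile normalization and TMM-type factors over the genes tested, at -1.68 and -1.58.

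*Il7r* (chromosome 15 from 9505788 to 9530176) did not follow the rest. It was listed at 2.14, 7.90 and 57.9 TPM in treated spleens and 3.95, 18.4 and 38.4 TPM in treated GBM, with wide overlap. The fold change of 0.51 (standard error 0.64, limma adjusted p = 0.534, exact permutation p = 0.437) turned negative, to -0.46 and -0.22, under quantile normalization and TMM-type factors over the genes tested. *Pik3ip1* (chromosome 11 from 3330401 to 3342971), the inhibitor of PI3K, was listed at 7.40, 57.9 and 171 TPM in spleen and 1.19, 17.5 and 30.2 TPM in GBM. Libraries spleen_72_b and spleen_72_c, at 10.4 and 7.40 TPM, sat at the level of GBM, and 5 of 8 spleens were above every GBM library. The fold change of -1.81 (standard error 0.72) gave an adjusted limma p of 0.0705 and an exact permutation p of 0.0416. Without library spleen_72_c the gene was called lower, at -2.17 (limma adjusted p = 0.0407). Leaving out any one of 8 other libraries took its exact permutation p above 0.05, to at most 0.0912 (without tumor_74_a).

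**Figure D2:**
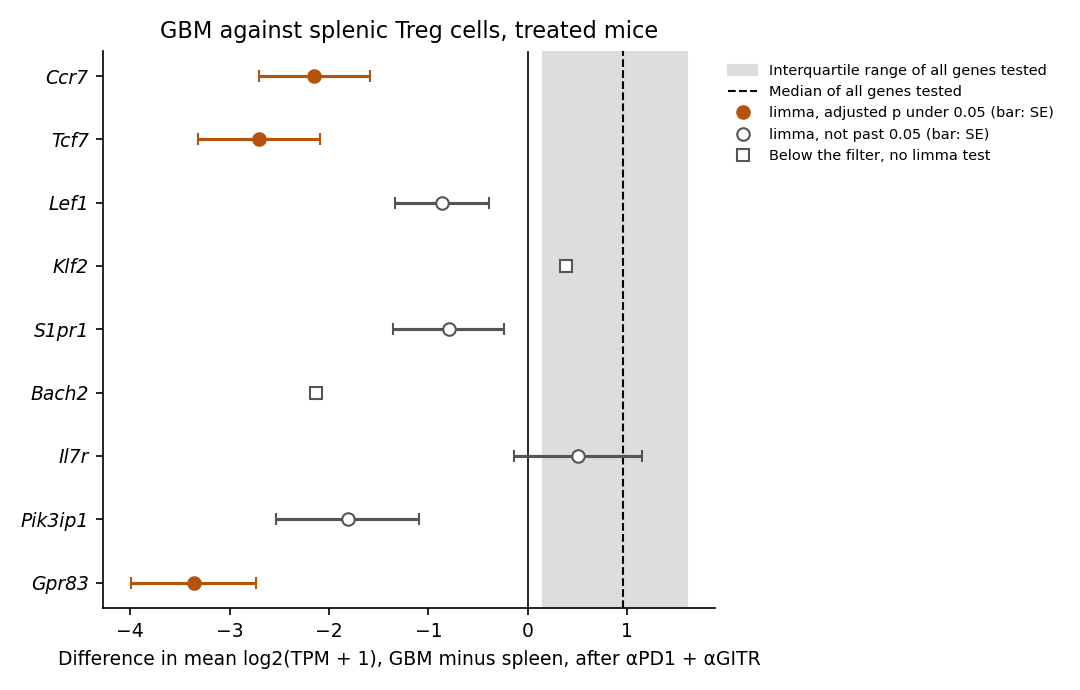
Difference in mean log2(TPM + 1) between treated GBM (n = 7) and treated spleen (n = 8) for the 9 genes, with standard errors from limma; squares mark the 2 genes below the filter, the dashed line is the median of the 7506 genes tested (0.95) and the gray band their interquartile range. *Gpr83*, *Tcf7* and *Ccr7*, filled, passed the adjusted threshold, and 7 of the 9 genes, all but *Il7r* and *Klf2*, lie below 0.

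How far these values depend on the processing differed between the genes. Over 30 alternative settings *Tcf7* was called lower in 29 (adjusted limma p from 0.000438 to 0.0863), *Gpr83* in 29 (3.26e-05 to 0.0509) and *Ccr7* in 28 (0.00207 to 0.108). No setting gave a positive value for them. The setting in which all 3 calls were lost kept only the libraries whose label number and letter occur in both tissues (5 pairs). It also fitted that label as a block, and called *Pik3ip1* instead. *Ccr7* also lost its call without a filter on low values, where 42667 genes were tested. *Pik3ip1* was called in 6 of 30 settings and *Lef1* and *S1pr1* in 2 each. Library tumor_73_a had the highest macrophage sum of its group, and without it the fold changes of *Gpr83*, *Tcf7* and *Ccr7* were -3.13, -2.48 and -2.40, all still called. Of 12 macrophage and microglia markers 8 were tested between the treated tissues, and 2 of 8 were higher in GBM, beside 15.8% of all genes. Their median log2 fold change was 1.91, against 0.95 over all genes, and their part was not tested.

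**Figure D3:**
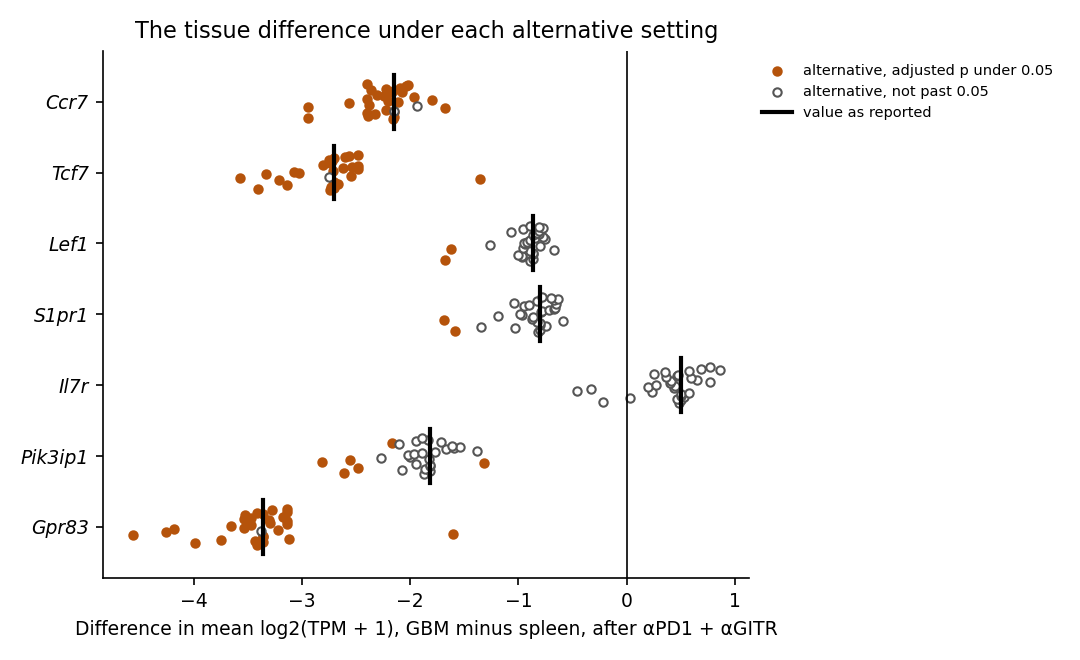
Difference between treated GBM and treated spleen for the 7 genes tested with limma, under each of the 30 alternative settings (points, filled where the adjusted p was under 0.05) and as reported (vertical bars). *Gpr83*, *Tcf7* and *Ccr7* stay below 0 and are filled in 29, 29 and 28 of 30 settings, and *Il7r* crosses 0.

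In the IgG-treated mice the same tissues gave the values by which *Gpr83* and *Pik3ip1* were chosen, and they are described without a test. The 5 GBM libraries are given in the order tumor_369_a, tumor_76_a, tumor_77_a, tumor_78_a and tumor_79_a. *Gpr83* was listed at 0.10, 1.17, 2.97, 3.51 and 0 TPM there, and at 13.1, 45.6 and 149 TPM (lowest, median and highest) in the 7 spleens. *Pik3ip1* was listed at 0, 15.4, 4.11, 29.2 and 36.4 TPM in GBM and at 77.8, 132 and 286 TPM in spleen. Both were without overlap, as were 17 of the 7380 genes (0.230%) in this direction, a count the choice itself used. The differences in mean log2(TPM + 1) were -4.33 and -3.91, and -3.65 and -3.45 without tumor_369_a and tumor_79_a. The genes next to these 2 members in size, *Tcf7* and *Ccr7*, differed by -3.53 and -2.67 (-2.92 and -2.11 without these 2 libraries), and in both the groups overlapped.

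*Tcf7* was listed at 0, 4.21, 3.47, 0 and 0 TPM in IgG-treated GBM against 4.18, 29.9 and 44.7 TPM in spleen. It was thus not detected in 3 of 5 GBM libraries, at unknown depth, and tumor_369_a and tumor_79_a, which stand apart, are among these. *Ccr7* was listed at 0.80, 21.6, 28.2, 39.3 and 68.6 TPM against 32.3, 154 and 291 TPM. *Lef1* was listed at 0.51, 15.2, 9.42, 10.7 and 20.5 TPM against 16.5, 37.8 and 116 TPM, a difference of -2.29 that was -1.64 without tumor_369_a. One GBM library of *Tcf7*, 1 of *Lef1* and 2 of *Ccr7* reached into the range of the spleens.

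*S1pr1* was listed at 0.050, 8.44, 7.54, 7.87 and 0 TPM in IgG-treated GBM and 2.07, 31.0 and 79.9 TPM in spleen, and differed by -2.60, which was -1.35 without tumor_369_a and tumor_79_a. *Klf2* was listed at 0.17, 5.97, 0.35, 1.61 and 0 TPM against 0.30, 14.0 and 45.3 TPM, and differed by -2.49 (-1.92 without the same 2 libraries). Both were widely spread among the spleens, where spleen_79_a and spleen_79_d were lowest for *Klf2*, at 0.96 and 0.30 TPM. *Bach2* was listed at 0.030, 1.27, 0.95, 1.59 and 13.4 TPM in GBM, where tumor_79_a was above every spleen (2.75, 6.38 and 9.81 TPM). *Il7r* was the one gene with a higher median in GBM, at 277, 19.6, 10.6, 16 and 37.4 TPM against 3.65, 5.43 and 79.97 TPM. Its value of 277 TPM came from tumor_369_a, in which *Il7r* was the only one of the 9 genes above 1 TPM.

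After IgG, tumor_369_a also had *Cd69*, an early activation antigen that opposes S1PR1 at the cell surface, at 123 TPM, where the other 4 GBM libraries were at 10.03 to 15.2 TPM. Its summed level of 5 markers of conventional CD4 T helper cells was 72.7 TPM, nearly all of it *Il21* (72.1 TPM), against a median of 5.20 TPM in its group, although the markers of Treg identity were present. Treatment results in GBM are given with and without it where leaving it out moved them, and its part in them beyond that was not tested.

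The effect of αPD1 + αGITR within GBM Treg cells was compared for the 7 members not chosen on IgG libraries. The comparison shares the 7 treated GBM libraries with that of the tissues. *S1pr1* and *Lef1* lay higher after treatment, and no member passed the adjusted threshold, as no gene of the 7848 tested did (0%). At an unadjusted p under 0.05, 1364 genes (17.4%) were higher and 385 (4.91%) lower, and the 7848 genes had a median of 0.62 on the log2 scale. This excess of higher genes rested on the scaling. With quantile normalization 606 of 1209 such genes were lower, and with TMM-type factors over the genes tested 739 of 1187. The medians were then 0.13 and -0.17. *S1pr1* was listed at 0.050, 8.44, 7.54, 7.87 and 0 TPM after IgG and 8.33, 14.5 and 35.2 TPM after treatment, and 6 of 7 treated libraries were above every IgG library. Its log2 fold change was 2.12 (standard error 0.76, limma unadjusted p = 0.0114, adjusted p = 0.147, exact permutation p = 0.00253 over 792 splits). Without tumor_369_a it was 1.66, and without the 3 libraries that stand apart it was 0.88 (limma adjusted p = 0.354, exact permutation p = 0.107), and over all 25 alternatives the adjusted p was 0.0962 to 0.511. The highest treated libraries, tumor_70_a and tumor_70_b (31.9 and 35.2 TPM), share a label number. With libraries averaged by label number the fold change was 1.96 (limma adjusted p = 0.286, exact permutation p = 0.0159). *S1pr1* passed the filter through the treated group alone (mean 17.7 TPM, against 4.78 TPM after IgG), and with a filter on the mean over both groups its adjusted limma p was 0.151.

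*Lef1* had medians of 10.7 TPM after IgG and 22.0 TPM after treatment, a log2 fold change of 1.19 (standard error 0.66, limma adjusted p = 0.284, exact permutation p = 0.0265), and 4 of 7 treated libraries were above every IgG library. Without tumor_369_a its fold change was 0.54, with an exact permutation p of 0.0970. The exact permutation p of *Lef1* was under 0.05 in 12 of 20 alternatives. It was 0.0635 with libraries averaged by label number and 0.0846 with quantile normalization. Leaving out tumor_70_a, tumor_70_b, tumor_72_a or tumor_73_a gave 0.0519 to 0.0563. *Ccr7* had medians of 28.2 and 25.3 TPM and a fold change of 0.01 (standard error 0.82, limma adjusted p = 0.994, exact permutation p = 0.990) that was -0.86 without tumor_369_a. *Il7r* had a fold change of -1.17 (standard error 0.75, limma adjusted p = 0.345, exact permutation p = 0.183), which was -0.41 without tumor_369_a and 0.17 without the 3 libraries that stand apart.

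*Tcf7*, *Klf2* and *Bach2* were below the filter in GBM. *Tcf7* had medians of 0 and 2.03 TPM, and the 2 treated libraries at 16 and 19.4 TPM were above every IgG library (difference 1.22, exact permutation p = 0.162, and 1.00 without tumor_369_a). *Klf2* had medians of 0.35 and 4.24 TPM (difference 1.20, exact permutation p = 0.106). The *Klf2* difference was 1.02 without tumor_369_a, and its exact permutation p was under 0.05 in 2 of 19 alternatives, without tumor_76_a (1.66, p = 0.0333) and without tumor_73_b (1.51, p = 0.0476), and otherwise at most 0.357. *Bach2* had medians of 1.27 and 0.37 TPM (difference -0.48, exact permutation p = 0.525, and 0.11 without tumor_79_a). *Gpr83*, with medians of 1.17 and 0.99 TPM, and *Pik3ip1*, with 15.4 and 17.5 TPM, are given without a test.

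In splenic Treg cells the treatment was compared between 8 treated and 7 IgG libraries, and no member and no other gene of the 6634 tested passed the adjusted threshold (0%). At an unadjusted p under 0.05, 69 genes (1.04%) were lower and 99 higher, and none of the 6 tested members that were not chosen on IgG libraries was among them. The lower count was 47 to 123 leaving out 1 library, and 136 with quantile normalization. *Pik3ip1* and *Gpr83* are not read against these counts, because the IgG spleens compared are those by which they were chosen. *Klf2* passed the filter through the IgG spleens alone (mean 18.4 TPM, against 4.25 TPM after treatment), the group where it is high, and also passed a filter on the mean over both groups. It had a median of 14.0 TPM after IgG and 1.62 TPM after treatment. Its log2 fold change was -1.67 (standard error 0.87, limma adjusted p = 0.9997, exact permutation p = 0.0831), and 4 of 7 IgG spleens were above 13.3 TPM, the highest treated spleen. The exact permutation p was under 0.05 in 5 of its 22 alternatives and at most 0.154. The fold changes of *Ccr7*, *Tcf7*, *Lef1*, *S1pr1* and *Il7r* lay between -0.51 and 0.40, with exact permutation p-values of 0.323, 0.410, 0.581, 0.662 and 0.951, and the difference of *Bach2*, below the filter, was 0.24 (p = 0.480). For *Ccr7* the exact permutation p was 0.0179 to 0.544 over 22 alternatives and under 0.05 in 1 of them. *Pik3ip1*, described only, had medians of 132 and 57.9 TPM, and 5 of 8 treated spleens were below the lowest IgG spleen. *Gpr83* had medians of 45.6 and 22.4 TPM.

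The difference between the treatment effects in GBM and in spleen was fitted over all 4 groups. Of 8687 genes none passed the adjusted threshold (0%), and 1056 (12.2%) had an unadjusted p under 0.05. That number was 635 of 8413 without tumor_369_a and 379 of 7904 without the 3 libraries that stand apart. *Klf2* entered this fit only through the IgG spleens, where it is high, and was dropped by a filter on the mean over all libraries, so its value is a description. The treatment effect on *Klf2* was 2.87 higher in GBM than in spleen on the log2 scale (standard error 1.16). Without tumor_369_a the *Klf2* value was 2.69, and without the libraries that stand apart 2.47. *S1pr1* and *Lef1* gave 1.80 and 1.43 (limma adjusted p = 0.498 and 0.519). Without tumor_369_a they gave 1.34 and 0.78, and without the libraries that stand apart 0.57 and 0.94. *Tcf7*, *Ccr7* and *Il7r* gave 0.82, 0.53 and -1.22, with adjusted p-values of 0.764, 0.861 and 0.675 in limma. Without tumor_369_a these 3 gave 0.59, -0.35 and -0.46, and without the libraries that stand apart 0.44, -0.29 and 0.13.

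Ordered by median TPM over the 4 groups, *Ccr7*, *Tcf7*, *Lef1*, *S1pr1*, *Bach2*, *Pik3ip1* and *Gpr83* had both splenic groups above both GBM groups. *Il7r* had the reverse order and *Klf2* a mixed one, with the IgG spleens first and treated GBM second. Neighboring groups in these orders overlapped in range for all genes, except for the treated spleens and the IgG-treated GBM in *Gpr83*. In the IgG spleens *Ccr7* (median 154 TPM) and *Pik3ip1* (132 TPM) were the most abundant of the 9 genes. The members detected above 1 TPM numbered 8 or 9 in each splenic library, 1 to 9 in the GBM libraries after IgG and 6 to 9 after αPD1 + αGITR.

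The Pearson correlations of log2(TPM + 1) over the 36 pairs of the 9 genes had, across the 27 libraries, a median of 0.58, and 29 pairs were above 0. The highest was that of *Tcf7* and *Gpr83* (r = 0.885). *Il7r* had correlations between -0.31 and 0.02 with the other 8 genes, and within the spleen between 0.04 and 0.74. Within GBM they lay between -0.69 and 0.19, and between -0.43 and 0.83 without the 3 libraries that stand apart. Spearman's rho of *Il7r* within GBM was 0.06 with *Lef1* and -0.06 with *S1pr1*, where Pearson's r was -0.66 and -0.55. The libraries share their tissue, and *Gpr83* and *Pik3ip1* were chosen for their tissue difference, so these values are a description. Within the 15 splenic libraries the median over pairs was 0.467 and within the 12 GBM libraries 0.323 (0.498 in the 9 without those that stand apart). The 10 most abundant features took from 31.9% to 78.3% of a library, which shifts the TPM of all other genes together. No background over other gene pairs was computed, and how far such a shift enters these correlations was not tested. Genes outside the list that were most like the mean standardized level of the 9, among 6218 genes with a mean above 10 TPM, were *Bcl2* (r = 0.863), *Id3* (0.807), *Ripor2* (0.780), *Il6ra* (0.779) and *Sesn1* (0.751) over the 27 libraries.

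**Figure D4:**
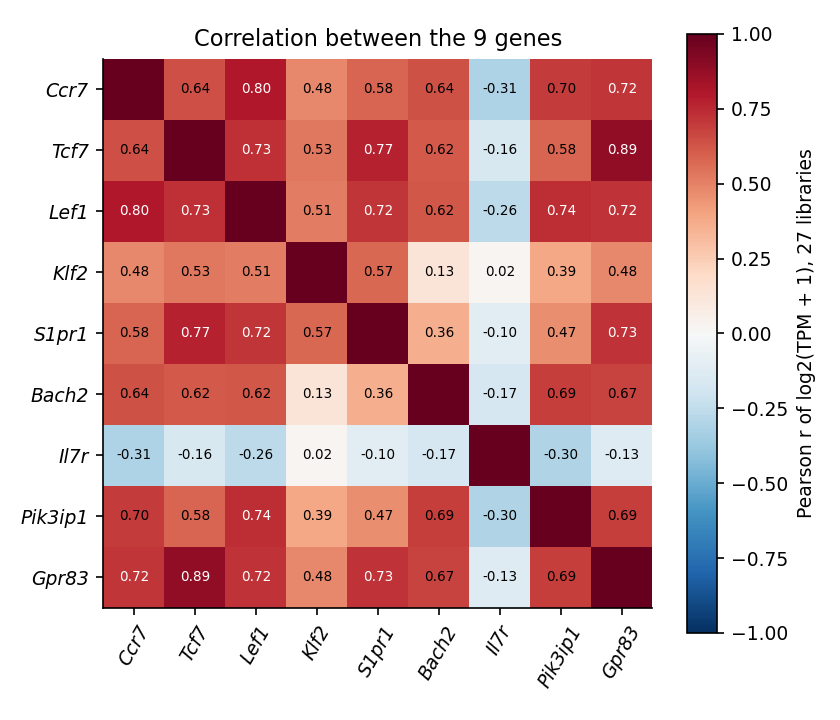
Pearson correlation of log2(TPM + 1) between each pair of the 9 genes over the 27 libraries, on a color scale from -1 to 1. *Tcf7* and *Gpr83* have the highest value, 0.89 at this rounding, and the row of *Il7r* lies between -0.31 and 0.02.

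Other genes of the same programs were compared between treated GBM and treated spleen from lists written with earlier results known, and are described by counts beside the medians. Of 20 genes of naive and central T cells 12 were tested, with a median of -1.09 (log2) against 0.95 over all genes, and 2 of 12 were lower and none higher, beside 1.61% and 15.8% of all genes. They were *Igfbp4*, an insulin-like growth factor binding protein (-4.19, limma adjusted p = 0.00249), and *Ly6c1* (-2.42, adjusted p = 0.0494). Of 20 genes of quiescence 18 were tested, with a median of 0.44. Lower were *Bcl2*, an inhibitor of apoptosis (-2.46, limma adjusted p = 0.0190), and *Id3*, an inhibitor of E proteins (-2.16, adjusted p = 0.0394). Higher were the RNA-binding proteins *Zfp36l2* (2.27, limma adjusted p = 0.0197) and *Zfp36l1* (1.70, adjusted p = 0.0303), and *Slfn2* (1.59, adjusted p = 0.0331). For all genes tested the shares were 1.61% lower and 15.8% higher. The first rests on 121 genes that numbered 41 to 483 leaving out 1 library, and the second on 1189 genes that numbered 549 to 1796. A list's count is therefore not read closely against either share.

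Of 16 genes of lymphoid homing and egress 14 were tested, with a median of 0.59. *Cxcr5*, the receptor that leads lymphocytes into B cell follicles, fell by 4.54 on the log2 scale (limma adjusted p = 8.44e-05), and *Selplg*, the ligand of P-selectin, was higher (1.74, adjusted p = 0.0165), each 1 of 14 beside 1.61% lower and 15.8% higher over all genes. *Foxo1*, a factor upstream of *Klf2*, was below the filter, with medians of 4.91, 3.90, 3.80 and 2.23 TPM in IgG spleens, treated spleens, IgG-treated GBM and treated GBM. *Cd69* had medians of 6.89, 8.93, 13.6 and 20.7 TPM in the same order, and a fold change between the treated tissues of 1.42 (limma adjusted p = 0.120).

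All 8 partners of the interleukin-7 receptor were tested, with a median of 1.57, and 3 of 8 were higher beside 15.8% of all genes. They were *Cish* (2.39, limma adjusted p = 0.00428) and *Socs1* (2.68, adjusted p = 0.0178), feedback inhibitors of cytokine signaling, and the common γ chain *Il2rg* (1.71, adjusted p = 0.0449). Of 18 genes of the PI3K pathway 13 were tested, with a median of 0.63, and the lipid phosphatase *Inpp5d* (1.88, limma adjusted p = 0.0298) and the kinase *Pdpk1* (1.97, adjusted p = 0.0443) were higher, 2 of 13 beside the 15.8% of all genes tested. Of 11 listed cofactors of TCF1 and LEF1 only 4 were tested and none passed. Of 16 effector Treg genes 15 were tested and 11 of 15 were higher (15.8% of all genes), with a median of 2.47. The leading ones were *Entpd1*, the ectonucleotidase CD39 (4.29, limma adjusted p = 0.000235), the chemokine receptor *Ccr8* (4.49, adjusted p = 0.000402) and *Klrg1* (3.67, adjusted p = 0.00156). Within each tissue no gene of these 7 lists passed the adjusted threshold for treatment. At an unadjusted p under 0.05 in limma, 4 of 13 homing, 4 of 17 quiescence, 5 of 16 effector, 3 of 14 PI3K and 1 of 8 interleukin-7 receptor partner genes were higher in treated GBM, beside 17.4% of all genes tested there. None of 10 naive and central genes or of 5 cofactors of TCF1 and LEF1 was. The 17.4% moved with the scaling, as given for treatment in GBM, so these list counts are not read against it closely. In treated spleen 1 of 18 quiescence genes was lower, beside 1.04% of all genes, a share that also moved with the library left out.

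**Figure D5:**
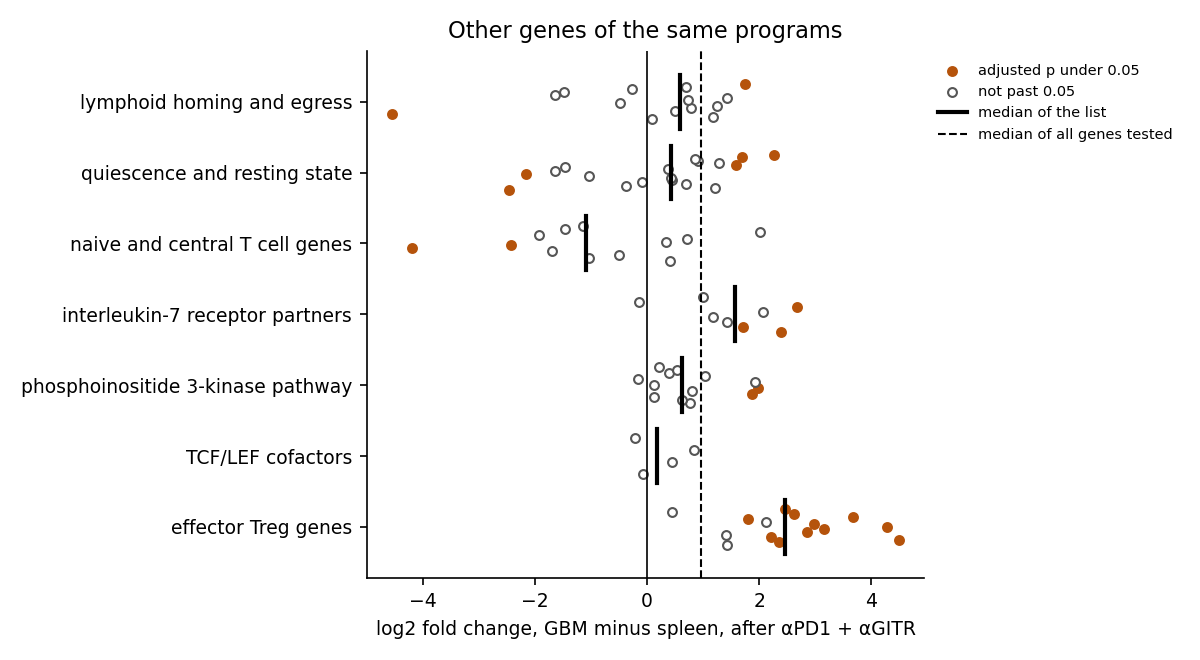
Log2 fold change between treated GBM (n = 7) and treated spleen (n = 8) for the genes tested in 7 lists; filled points have an adjusted p under 0.05, bars are list medians and the dashed line is the median of all 7506 genes tested. The naive and central list has a median of -1.09 and the effector list one of 2.47.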

How the data were processed

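RNA of sorted Treg cells was sequenced by the authors on a NextSeq500. Per the labels, reads were aligned to mm10 with TopHat2 after bcl2fastq, and the study's methods name RSEM for TPM. Versions are not given in the sources used here. The deposited values are TPM plus 1, and 1 was subtracted. Of 28 libraries described, 27 had a named column, 1 column of values was not used, and 1 of 9 treated spleens was not analysed here. Depth is unknown, so there are no counting intervals.

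Groups were compared with limma 3.58.1 (R 4.3.3, intensity trend, two-sided) on log2(TPM + 1), that is with a pseudocount of 1, keeping genes whose mean exceeded 10 TPM in any group compared, with adjustment by Benjamini-Hochberg over all genes tested and a threshold of 0.05. Single members were compared by exact permutation of the mean log2(TPM + 1). The code was tested on simulated data. The comparisons share control samples. A fold change on this scale understates the change of low genes. Python 3.11.15 was used for summaries.

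The members and lists were chosen with earlier results of these data known. Named were the 9 members, *Foxo1* and *Cd69*, at most 3 genes a direction from each list, and the 5 genes most like the members. Values of some other genes are not reported here. The alternatives were pseudocounts of 0.1 and 10, other filters, quantile and TMM-type scaling (trims of 30% and 5%), rescaling without the 10 most abundant features, the number of genes detected as a covariate, library weights, 1 fit of all groups, averaging or blocking by label number, and leaving out each library. Leaving out the libraries that stand apart and TMM-type factors over all features were added after seeing the data. Promoter windows came from RefSeq (GRCm38.p6), and gene positions from GENCODE for GRCm38.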

Additional observations from a re-analysis of the deposited data

Results flagged for a closer look

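Of 36 sets of values (9 genes in 4 groups), 5 held a library far from the others of its group by Dixon's test on TPM. Chance alone flags about 1 of 20 sets where values are normally spread, which TPM are not, and 1 of the 5 also passed on log2(TPM + 1), that of *Il7r* in spleen_79_b. In 3 of them the gene was *Il7r*, which encodes the receptor chain CD127 by which the cells were sorted. Its level was 79.97 TPM in IgG library spleen_79_b, 57.94 TPM in treated library spleen_74_a and 277.2 TPM in IgG library tumor_369_a. *Klf2* was at 5.97 TPM in IgG library tumor_76_a. *Bach2* was at 13.41 TPM in IgG library tumor_79_a, which also had the highest macrophage sum.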

How the results depend on the processing

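For treated GBM against treated spleen, the 3 genes called lower became 6 with quantile normalization, 7 with TMM-type factors over the genes tested and 1 with a replicate block (label number and letter). What the label numbers stand for is not known, and the libraries were not treated as pairs. The correlations of same-labelled libraries were -0.16 to 0.09 over 5 pairs, and 1 of 5 correlated best with its own label. With a replicate block (label number) 38 genes were called lower, and with the block on number and letter 13. The count of 121 was 47 and 222 with pseudocounts of 0.1 and 10, 12 without a filter, 651 with quantile normalization, 319 with TMM-type factors over the genes tested, 74 rescaled without the 10 most abundant features, 80 with genes detected as a covariate, 58 with all 4 groups in one fit, 19 with libraries averaged by label number, 41 without the library that stands apart, and 41 to 483 leaving out 1 library. The 1189 genes called higher were 549 without tumor_70_b, 1796 without spleen_73_a and 122 with the block on number and letter. The cause was not tested.

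The values whose sign turned, on the log2 scale, were these. For the treated tissues, *Il7r* was -0.46 with quantile normalization, -0.22 with TMM-type factors over the genes tested and -0.33 with the replicate block on number and letter. *Klf2* was -0.18 with TMM-type factors over the genes tested and -0.018 averaged. For treatment in GBM, *Ccr7* was -0.15 with a pseudocount of 10, -0.93 with quantile normalization, -0.50 and -0.10 with TMM-type factors over the genes tested and all features, -0.075 rescaled, -0.047 with the covariate, -0.68 with library weights, -0.81 without the libraries that stand apart, and -0.86 to 0.46 leaving out 1 library. *Il7r* was 0.17 without the libraries that stand apart, and *Bach2* -0.84 to 0.11 leaving out 1 library. For treatment in spleen, *S1pr1* was -0.18 with library weights and -0.17 to 0.62 leaving out 1 library. *Il7r* was -0.070 with quantile normalization, -0.15 and -0.20 with the 2 kinds of TMM-type factors, -0.074 rescaled, -0.0058 with the covariate, -0.087 with weights and -0.31 to 0.54 leaving out 1 library. *Bach2* was -0.010 with TMM-type factors over all features and -0.061 averaged. The difference between treatment effects for *Ccr7* was -0.33 with quantile normalization, -0.024 with weights, -0.29 without the libraries that stand apart and -0.35 to 0.97 leaving out 1 library, and for *Il7r* 0.13 without those libraries.

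Within GBM, library weights called 134 genes higher and 129 lower for treatment, and the covariate 53 and 26. Without tumor_73_b 18 were called higher and 85 lower, without tumor_79_a 5 and 16, and at most 2 genes in all under each other setting, with no member called.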
